A study of Mus musculus with 2 samples.

Results

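The B lineage cells of the mouse uterus were 51 of 9004 single-cell barcodes, 25 of 4401 in the library labelled control against 26 of 4603 in that labelled cKO. They were chosen by their own counts of unique molecular identifiers (UMIs, each standing for 1 captured transcript). Each had at least 500 UMIs and 250 genes, and mitochondrial genes held no more than 20% of its UMIs. Each also met 1 of 2 branches. The first branch asked for at least 2 UMIs summed over Cd79a, Cd79b and Ms4a1. The second asked for at least 5 UMIs summed over Jchain, Mzb1 and Derl3 together with at least 5 of Ighm, Igha or Igkc. Barcodes with any UMI of Cd3e, Pdgfra or Epcam were left out, as were those with more than 2 UMIs of the C1q genes or of S100a8 and S100a9. These genes chose the cells, so their levels are a description and support nothing.

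Whole uteri of female C57BL/6J mice aged 6 months were digested with collagenase for 5 hours and captured by droplet sequencing from the 3′ end of transcripts. The control library was titled Prickle1 f/f and the cKO library Prickle1 f/f MiC, and each pooled 3 mice. Both therefore carry the floxed Prickle1 allele. The meaning of MiC, the cells it acts in and whether the control carries any of it are not given in the labels, which list the genotype of both as wild-type. With 1 library per group there was no replicate, so no test was made. All intervals are 95% and cover counting error only.

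B cells carry an antigen receptor whose signalling subunits are Cd79a (Igα) and Cd79b (Igβ), and they present antigen on MHC class II. After activation some become antibody-secreting cells, which turn most of their protein synthesis to immunoglobulin and switch off much of the B cell programme. At mucosal surfaces such as the gut and genital tract these cells often secrete IgA joined by the J chain, and the epithelial receptor Pigr carries that IgA into the lumen.

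Prickle1, the gene that the cKO label concerns, had 1 UMI in the members of each library. Over all passing barcodes it had 102 UMIs in the library labelled control (2.67 per 1000000 UMIs, or CPM) and 280 in that labelled cKO (9.31 CPM). These counts show no loss of Prickle1 in the library labelled cKO. They were taken at the 3′ end over all cells, and whether they would register a deletion was not tested. Each library is therefore called by its label, and all directions given rest on those labels. The libraries held 45035801 and 34261441 UMIs, with a median of 3377 per passing barcode in each. Of the passing barcodes 9 occurred in both libraries, and none of these was a member. No doublet caller was applied, and doublets were treated by the rule's exclusion genes alone.

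Antibody-secreting cells, the second branch, were found among members of the library labelled cKO only. They were 3 of its 4603 passing barcodes (0.0652%, 0.0134 to 0.190) against 0 of 4401 in the library labelled control. That 0 allows a share of up to 0.0682% when a count of 0 is taken to allow 3 (the exact 95% upper bound is 0.0838%). The ratio of the shares had a lower limit of 0.395, so among members the difference lay within counting error. An antibody-secreting cell can be told from its neighbours by the variable (V) gene it has joined into its receptor. The V genes counted in these 3 cells are shown first, because they are the closest the 3′ counts come to an identity for each cell. In 1 cell Ighv6-3 had 31 UMIs and its relative Ighv6-6 had 3, while Igkv1-110 and Igkv1-117 had 6 each. In another, Ighv1-64 had 12 UMIs, Ighv1-62-3 had 7 and Igkv4-61 had 5. The last cell had 2 UMIs of Igkv8-30 and 1 of Ighv1-82, too few to name a leading gene. The coding sequences below are GENCODE vM21 transcripts on build GRCm38 without their untranslated parts, and the last 300 bases of each are printed. Capitals mark the bases at which the genes of a pair differ or that have no counterpart in the other gene.
Ighv6-3: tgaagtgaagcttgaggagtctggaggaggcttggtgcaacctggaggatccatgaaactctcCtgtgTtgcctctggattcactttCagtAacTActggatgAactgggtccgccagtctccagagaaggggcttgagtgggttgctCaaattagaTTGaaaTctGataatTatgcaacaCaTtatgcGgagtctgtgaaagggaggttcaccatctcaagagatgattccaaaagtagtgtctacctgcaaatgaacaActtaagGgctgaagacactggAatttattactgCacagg
Ighv6-6: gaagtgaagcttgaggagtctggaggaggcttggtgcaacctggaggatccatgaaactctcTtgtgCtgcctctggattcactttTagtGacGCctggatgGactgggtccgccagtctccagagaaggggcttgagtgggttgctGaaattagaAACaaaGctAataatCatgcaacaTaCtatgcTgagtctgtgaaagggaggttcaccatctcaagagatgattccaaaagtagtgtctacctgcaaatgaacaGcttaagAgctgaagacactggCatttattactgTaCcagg
Ighv1-64: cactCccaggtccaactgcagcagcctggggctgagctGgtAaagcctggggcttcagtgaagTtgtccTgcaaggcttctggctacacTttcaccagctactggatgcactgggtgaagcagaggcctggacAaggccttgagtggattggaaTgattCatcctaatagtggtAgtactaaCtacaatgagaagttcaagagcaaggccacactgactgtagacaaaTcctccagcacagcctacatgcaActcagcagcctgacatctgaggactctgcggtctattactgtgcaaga
Ighv1-62-3: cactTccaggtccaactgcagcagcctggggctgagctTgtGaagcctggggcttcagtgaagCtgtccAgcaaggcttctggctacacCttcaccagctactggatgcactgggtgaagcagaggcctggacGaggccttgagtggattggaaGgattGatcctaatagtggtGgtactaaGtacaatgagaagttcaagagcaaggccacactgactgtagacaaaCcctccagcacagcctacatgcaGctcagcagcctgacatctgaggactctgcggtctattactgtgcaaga
Igkv1-110: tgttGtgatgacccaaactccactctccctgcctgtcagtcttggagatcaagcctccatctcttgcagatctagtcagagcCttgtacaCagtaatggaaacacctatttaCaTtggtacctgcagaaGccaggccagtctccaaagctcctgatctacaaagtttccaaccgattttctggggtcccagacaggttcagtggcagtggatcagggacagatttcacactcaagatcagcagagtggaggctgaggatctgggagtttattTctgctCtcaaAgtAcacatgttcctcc
Igkv1-117: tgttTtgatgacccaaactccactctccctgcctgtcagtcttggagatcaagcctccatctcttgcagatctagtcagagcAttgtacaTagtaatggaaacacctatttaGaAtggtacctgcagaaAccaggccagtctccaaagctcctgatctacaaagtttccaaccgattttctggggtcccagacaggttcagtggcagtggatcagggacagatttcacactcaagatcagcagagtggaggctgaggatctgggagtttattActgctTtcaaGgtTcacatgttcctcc
Ighv6-3 (chr12:114391712-114392169, minus strand) and Ighv6-6 (chr12:114434788-114435244, minus strand) were identical at 91.0% of the 356 aligned bases of their whole coding parts. Ighv1-64 (chr12:115507545-115508031, minus strand) and Ighv1-62-3 (chr12:115460999-115461485, minus strand) were identical at 95.2%, with 17 differing bases. Igkv1-110 (chr6:68270485-68271267, plus strand) and Igkv1-117 (chr6:68121046-68121827, plus strand) differed at 10 of 359 bases, an identity of 97.2%. Reads of one V gene can be counted to such a relative, so the V genes of a pair in 1 cell are reported as uncertain and the pair is not read as a pair of receptors.

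The 3 antibody-secreting members held 10173, 15228 and 15499 UMIs, well above the median passing barcode. Immunoglobulin genes took 53.9%, 41.5% and 46.5% of their UMIs, in that order. Igha (chr12:113254830-113260236, minus strand), the constant gene of the IgA heavy chain, had 2831, 2834 and 3340 UMIs. Igkc (chr6:70726435-70726966, plus strand), the kappa light chain, had 1918, 2673 and 2904. All 3 were thus of class IgA with a kappa light chain, where a class needed at least 3 UMIs and 60% of the chain's UMIs. Iglc2, a lambda constant gene, had 5, 85 and 6 UMIs in the same order, far below Igkc in each cell. Jchain (chr5:88519809-88527891, minus strand), which joins IgA into dimers, had 709, 697 and 880 UMIs, and the second branch used it.

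Of 29 genes of the plasma cell and secretory list that the rule did not use, 15 had UMIs in all 3 cells, 11 in 1 or 2 of them, and 3 (Creld2, Pou2af1 and Sdf2l1) in none. Prdm1, the transcription factor of plasma cell differentiation, had 4 UMIs in 1 cell, and Sdc1, the plasma cell surface marker CD138, had 5 in each of 2. Xbp1, the transcription factor of the secretory programme, had 46, 62 and 71 UMIs in the 3 cells, against 9 and 5 summed over the 18 and 14 B cells described further on. The ER chaperone Hsp90b1 had 4 to 42 UMIs per cell, and Herpud1, of ER-associated degradation, 7 to 20. Tent5c, which extends the poly(A) tails of immunoglobulin messages, had 9 to 21. Cd79a had 2, 12 and 5 UMIs, so all 3 cells also met the first branch. Against all other barcodes of their library the genes that led in these cells were Iglc2, Igha, Jchain, Ighv6-3 and Igkc, followed at lower levels by Ly6d, Ly6c2, Prg2 and Mzb1 among others. The B cell genes Pax5, Ms4a1, Cd22, Bank1 and Ebf1 were at 0 in each. Cd74, the chaperone of MHC class II, had 10, 19 and 12 UMIs, and the class II genes H2-Aa, H2-Ab1 and H2-Eb1 were at 0. Markers of T cells, NK cells, macrophages, granulocytes, fibroblasts, epithelium and smooth muscle were at 0 in these cells, and 2 UMIs of Pecam1 lay in 1 of them.

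The exclusion genes removed more antibody-secreting barcodes than they kept. The second branch was met by 0 passing barcodes of the library labelled control and by 14 of that labelled cKO, and 11 of the 14 were left out. Epcam, a surface protein of epithelium, was the single reason for 8 of them, at 1 to 6 UMIs each. These 8 held 6119 to 54462 UMIs, of which immunoglobulin genes took 21.9% to 59.7%. Krt8 and Wfdc2, epithelial genes not used by the rule, were at 0 in all 8. Among all passing barcodes with an Epcam UMI, 92.1% had a Krt8 UMI in the library labelled control against 63.1% of 141 in that labelled cKO. Of the other 3, 1 had Pdgfra and Epcam, 1 had Pdgfra (with 56 UMIs of the fibroblast gene Dcn and 137 of Igha), and 1 had C1q genes. What the Epcam UMIs in these barcodes stand for was not tested.

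Immunoglobulin share alone also separated the libraries, but largely through the same barcodes. Barcodes with at least 20% of UMIs on immunoglobulin genes, with at least 100 UMIs and no other limit or exclusion, numbered 1 in the library labelled control against 13 in that labelled cKO. Of these 13, 3 were the members, and 9 had an Epcam UMI and are among the barcodes left out above. The last failed the mitochondrial limit, at 27.3%. The control barcode had 1331 UMIs on 128 genes, 80.5% of them immunoglobulin, with 515 of Igha and 485 of Igkc, and it failed the gene limit. Of the 13, 11 were of class IgA and 2 of class IgG, and each had kappa as its light chain. An IgG barcode of 6119 UMIs carried 1885 UMIs of Ighg2b. The other, of 29305 UMIs, carried 1594 of Ighg2b and 2804 of Ighg2c, 2 genes identical at 87.8% of their aligned coding bases, as well as 45 of the macrophage gene Lyz2. Heavy and light V genes with at least 3 UMIs were both present in 9 of the 13. In 1 of the 9 the light gene was the tie of Igkv1-110 and Igkv1-117 given above, and the heavy and light combinations differed among the 9 whichever of these is taken. Igkv12-46 (chr6:69764523-69765022, minus strand) led the light chain of 2 barcodes, at 137 UMIs beside Ighv1-53 and at 49 beside Ighv3-6. Igkv1-110 led 2 others, at 49 UMIs beside Ighv1-81 and 48 beside Ighv1-53.

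**Figure D1:**
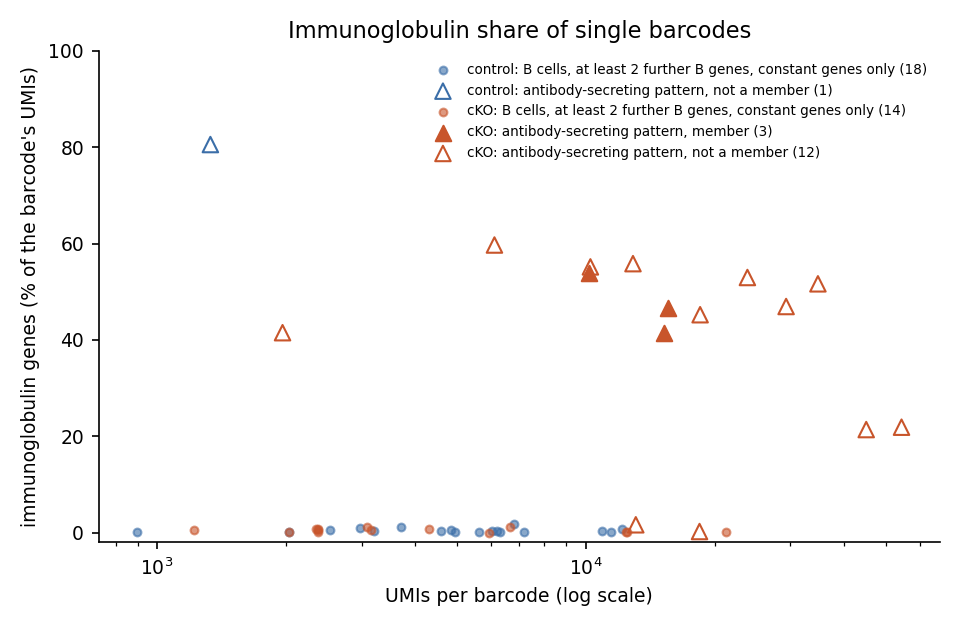
Immunoglobulin genes as a percent of each barcode's UMIs against its total UMIs (log scale). Filled triangles are the 3 antibody-secreting members (41.5% to 53.9%), open triangles the barcodes of that pattern that are not members, and small circles the 32 B cells with at least 2 further B genes, for which constant genes alone were summed and which lie near 0.

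Immunoglobulin transcripts were also found outside cells. In near-empty droplets of 1 to 50 UMIs, Igha had 24 UMIs in the library labelled control (10.6 CPM, 6.77 to 15.7) and 1581 in that labelled cKO (1069 CPM, 1017 to 1124), a ratio of 101 (67.8 to 158). Igkc was 95.6-fold higher (69.8 to 135) and Jchain 83.1-fold higher (44.8 to 174). Ighm, the IgM heavy chain, had 21 and 15 UMIs there, a ratio of 1.10 (0.526 to 2.23), and Cd74 was at 489 and 552 CPM. The IgG genes Ighg2b and Ighg2c were 39.9-fold (10.5 to 339) and 18.9-fold higher (6.00 to 96.0). Igha, Igkc, Jchain, Ighg2b and Ighg2c thus differed beyond counting error in these droplets, while the interval of Ighm included 1. Cd74 differed slightly, at a ratio of 1.13 (1.03 to 1.24). Barcodes of other cell types held Igha too: 0.211% of fibroblasts had an Igha UMI in the library labelled control against 5.41% in that labelled cKO, in cells with a median of 14221 and 12736 UMIs. In T cells the shares were 0% and 4.90%, and in macrophages 0% and 7.69%. T cells, macrophages and fibroblasts were named here by short marker rules on barcodes outside the members.

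**Figure D2:**
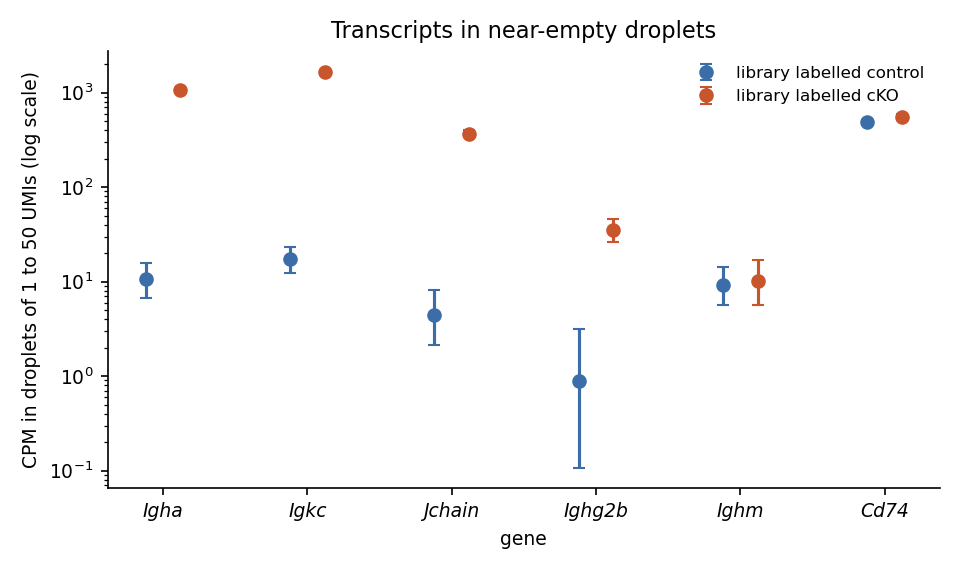
CPM of 6 genes in near-empty droplets of 1 to 50 UMIs (log scale), with exact Poisson 95% intervals, in each library. Igha, Igkc and Jchain lie 83.1-fold to 101-fold higher in the library labelled cKO and Ighg2b 39.9-fold higher, while Ighm and Cd74 lie close together.

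Genes that serve mucosal IgA differed between the libraries in the barcodes outside the members. Pigr, the receptor that carries IgA across epithelium, had 5098 UMIs in 773 barcodes of the library labelled control (134 CPM) and 112 in 29 barcodes of that labelled cKO (3.75 CPM). Ccl28, an epithelial chemokine for IgA cells, had 328 and 9 UMIs. Passing barcodes with an Epcam UMI numbered 1087 and 141, so fewer epithelial barcodes and less Pigr moved together, and their part in the antibody-secreting count was not tested. Il6, a cytokine that sustains plasma cells, was at 71.5 and 285 CPM, and Cxcl12, a chemokine of plasma cell niches, at 94.1 and 159 CPM. Of the survival ligands, Tnfsf13 (APRIL) was at 8.44 and 3.91 CPM and Tnfsf13b (BAFF) at 2.26 and 4.18 CPM. These sums mix cell types, and fibroblasts were 10.7% and 19.3% of passing barcodes. Within fibroblasts Il6 was also higher (167 and 439 CPM), but Cxcl12 was lower (320 and 224 CPM). Tnfsf13b was at 5.57 and 3.37 CPM in fibroblasts and Tnfsf13 at 18.6 and 25.6 CPM in macrophages, with overlapping intervals.

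B cells, the first branch without antibody-secreting cells, numbered 25 and 23. Members as a whole made up 0.568% of passing barcodes in the library labelled control (0.368 to 0.837) and 0.565% in that labelled cKO (0.369 to 0.827). The ratio was 0.994, and its interval of 0.552 to 1.80 includes 1. After each barcode was thinned to 1000 UMIs the shares were 0.340% and 0.553%, a ratio of 1.63 (0.758 to 3.65). The thinned members were not the same set. Of the 20 in the library labelled cKO, 11 were antibody-secreting, against 3 before thinning, when the exclusion genes left out 11 such barcodes. Of the 12 in the library labelled control, 0 were. With Epcam not applied to the second branch, the share in the library labelled cKO was 0.739%. T cells over the same denominators were 3.20% and 7.54%, a ratio of 2.35 (1.93 to 2.88). Among barcodes with a UMI of the leukocyte gene Ptprc, members were 13 of 791 (1.64%) and 17 of 1126 (1.51%).

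The label was checked against 10 further B cell genes that the first branch did not use, among them Pax5, Cd22, Bank1, Fcmr, Blk, Ebf1, Ighm, Ighd and Cd37. This check and its limit of 2 genes were set after the values had been seen. At least 2 of the 10 were present in 18 of the 25 B cells of the library labelled control (72.0%, 50.6 to 87.9) and in 14 of the 23 of that labelled cKO (60.9%, 38.5 to 80.3). The 18 held a median of 5295.5 UMIs and the 14 a median of 3122.5. UMIs per cell and numbers of cells with a UMI are therefore not matched for depth between them. Cd74, used by neither definition, had 11 to 88 UMIs in the 18 and 7 to 104 in the 14. In the other 7 and 9 it was at 0 in all but 1 and 3 barcodes, the highest at 191. All 548 immunoglobulin UMIs of the control B cells lay in the 18, though Ighm and Ighd are among the 10 genes that picked them.

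Several of the other 16 barcodes carried genes of other cell types, and the 16 are called by the rule alone. In the library labelled control, 1 had 142 UMIs of Col1a1 and 18 of Dcn, another 45 of Dcn, and both genes mark fibroblasts. Another had 11 UMIs of the epithelial gene Krt8. The deepest, of 29370 UMIs, had 31 of the endothelial gene Cdh5 and 36 of Rgs5. In the library labelled cKO, 3 carried the lymphatic endothelial gene Prox1, at 7, 38 and 120 UMIs, with 6, 45 and 40 of the chemokine Ccl21a. Another had 80 UMIs of Ccl22, 17 of Il7r and 191 of Cd74 with Ms4a1 at 2, and its Cd79a and Cd79b were at 0. A shallow barcode of 1214 UMIs had 8 of Ighm, 2 of Cd79b and 4 of Cd74, and no other of the 10 further genes.

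**Figure D3:**
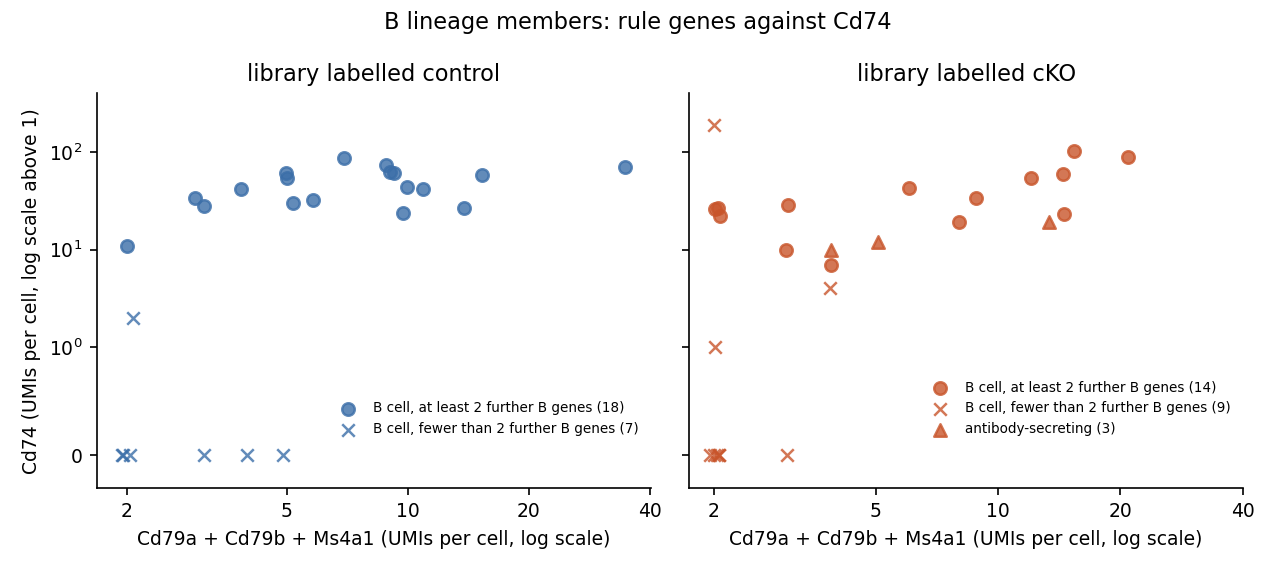
Cd74 UMIs (log scale above 1) against the summed Cd79a, Cd79b and Ms4a1 UMIs that chose the cells (log scale, points spread slightly sideways), 1 symbol per member. Circles, at least 2 further B genes, have 7 or more Cd74 UMIs in both libraries, while most crosses, fewer than 2, lie at 0.

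Most of these 16 sat close to the threshold. At exactly 2 UMIs of the rule genes were 5 members of the library labelled control, 1 of them with at least 2 further B genes, and 10 of that labelled cKO, 3 of them with such genes. Above 3 UMIs were 17 and 10, of which 15 and 9 had them. Just outside, at 1 UMI, were 32 and 35 barcodes, of which 3 and 4 had them. Another 41 and 17 barcodes met the first branch and were removed by the exclusion genes, 4 and 0 of them with at least 2 further B genes.

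Ighm was the most frequent heavy chain gene of the 32 B cells with at least 2 further genes, but Ighm and Ighd are among the 10 genes that picked these cells, so this is a description. Genes that led in them against all other barcodes and had no part in picking them included Iglc2, Dnase1l3 and Irf4. Ighm was found in 17 of 18 and 12 of 14 cells, with 146 and 140 UMIs in all. By the class rule given above, 12 and 10 cells were IgM, and 6 and 4 could not be assigned. Ighm also had UMIs in 13.3% and 10.7% of macrophages and in 3.55% and 3.17% of T cells, at 27.2 and 19.8 CPM in macrophages against 1426 and 1708 CPM in these B cells. Ighd, the IgD constant gene of naive B cells, had 7 and 5 UMIs. For the light chain 13 and 9 cells were kappa, 3 and 2 lambda, and 2 and 3 had too few UMIs. In 1 control cell Igha had 8 UMIs beside 94 of Igkc and none of Ighm, but 0 cells of either library were of class IgA. The IgG gene Ighg2c had 10 UMIs in the 18 control cells, all in 1 cell (5.56%), and 0 in the 14. Igha was present in 1 cell of each library, at 1 UMI in the library labelled cKO, where free Igha was common.

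Genes that picked the 32 cells are given as a description. Ebf1, which commits cells to the lineage, was at 1189 and 1029 CPM in these cells (here and for other genes of B cells over UMIs outside immunoglobulin genes), a ratio of 0.866 (0.648 to 1.15). Pax5, which maintains that commitment, had 13 and 14 UMIs. Cd79a (chr7:24897381-24902197, plus strand) had 82 and 76 UMIs, and Cd79b (chr11:106311341-106314762, minus strand) had 7 and 6. Ms4a1 (CD20; chr19:11249675-11266241, minus strand) had 72 UMIs in 16 cells and 35 in 9. Its values ran from 0 to 22 per cell with a median of 2.5 in the library labelled control, and from 0 to 7 with a median of 1.5 in the library labelled cKO, so the cells overlapped. Scaled to the unequal depth of the cells, the medians were 462 and 278 CPM.

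Some receptor genes were sparse in the library labelled cKO. Tnfrsf13c, the BAFF receptor, had 13 UMIs in 6 of the 18 cells and 0 in the 14, with an upper limit of 0.409 on the ratio. Blk, a kinase of B cell receptor signalling, had 9 UMIs in 5 cells and 0, with an upper limit of 0.632. Cd22, a brake on that receptor, had 9 UMIs in 7 cells and 1 in 1 cell. Tnfrsf13b, the receptor TACI, had 8 and 1 and Cxcr5, which guides cells to follicles, 6 and 1. These 5 genes were singled out after their values were seen, they fell below the 20 UMIs asked of a compared gene, and limits at this depth are wide. The 14 cells were also shallower than the 18, at a median of 3122.5 against 5295.5 UMIs. Blk was also present in 24 of 141 T cells of the library labelled control against 100 of 347 of that labelled cKO, so it is no exclusive B cell gene here.

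Antigen presentation genes were abundant in the 32 B cells of both libraries. Cd74 had a median of 43 UMIs per cell (11 to 88) in the library labelled control against 28 (7 to 104) in that labelled cKO, and the cells overlapped almost throughout. Scaled to the unequal depth of the cells, the medians were 10115 and 7798 CPM. H2-Aa, a class II α chain, was at 2023 and 1765 CPM. H2-Ab1, a class II β chain, was at 1189 and 1042 CPM. Of 7 tested genes of the MHC class II and costimulation list, 0 were past 2-fold, against 8.12% of all genes tested in these cells higher and 3.72% lower. H2-Eb1, of the second class II isotype, was at 1218 and 686 CPM, a ratio of 0.563 (0.403 to 0.778). Summed over the 16 genes of that list, the ratio was 0.818 (0.751 to 0.890), and without 1 barcode of 21227 UMIs in the library labelled cKO it was 0.941 (0.860 to 1.03). The same sum had a ratio of 1.23 (1.13 to 1.34) in T cells and 0.885 (0.867 to 0.902) in macrophages.

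Interferon-stimulated genes, the antiviral programme induced by interferons, had a ratio nearer to 1 in B cells than in the other classes. The list's 50 genes summed to 76 UMIs in the 18 B cells (746 CPM) and 51 in the 14 (625 CPM), a ratio of 0.837 (0.575 to 1.21). Per cell the sum ran from 0 to 12 with a median of 3.5 in the library labelled control against 0 to 13 with a median of 2 in that labelled cKO. Scaled to depth, the medians per cell were 636 and 458 CPM. In T cells the list was at 5292 and 1482 CPM, a ratio of 0.280 (0.266 to 0.295). In macrophages it was at 20533 and 6255 CPM (0.305, 0.297 to 0.312), and in fibroblasts the ratio was 0.343 (0.335 to 0.351). The interval in B cells lay above those of the other 3 classes, and the difference over mice could not be tested with 1 library per group. Over the 25 and 23 B cells of the rule the ratio was 0.567 (0.435 to 0.736), and 3 of the 50 genes reached the 20 UMIs asked of a compared gene, with a median log2 ratio of 0.04.

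**Figure D4:**
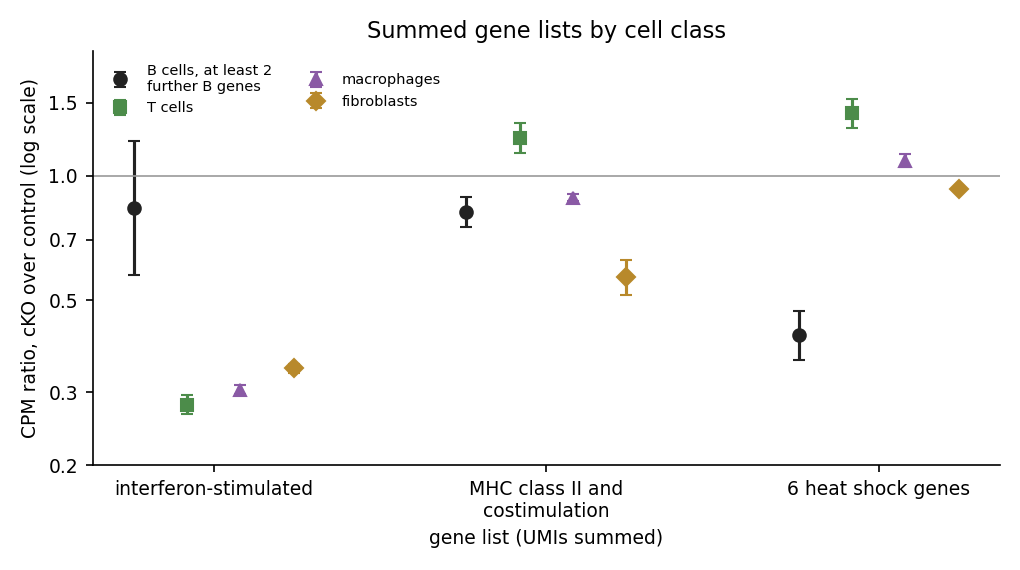
Ratio of CPM, cKO over control (log scale), for 3 summed gene lists in the 32 B cells with at least 2 further B genes and in T cells, macrophages and fibroblasts, with exact 95% intervals for counting error. The interferon-stimulated ratio is 0.837 in B cells against 0.280 to 0.343 in the others, and the heat shock ratio is 0.412 against 0.930 to 1.41.

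Single genes were compared between the libraries in B cells by the log2 ratio of CPM plus 50, over genes with at least 20 UMIs in all, leaving out immunoglobulin genes from the totals. A gene was counted as past 2-fold at a log2 ratio of 1 or more, or -1 or less. Over the 25 and 23 B cells of the rule, 209 of 2612 genes (8.0%) were past 2-fold higher in the library labelled cKO and 97 (3.71%) lower, with a median over all genes of 0.17. Scaling by the median of ratios, which sets that median to 0, gave 150 higher and 145 lower and moved the higher share of calls from 68.3% to 50.8%.

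The genes at the ends of that comparison came mostly from a few barcodes. Highest were the chemokine Ccl21a (0 and 270 UMIs), the lymphatic transcription factor Prox1 (1 and 189), the dendritic cell chemokine Ccl22 (0 and 80, in 1 barcode) and the neutrophil chemokines Cxcl2 and Cxcl1. Mmrn1, Gpr183 and the monocyte chemokine Ccl2 followed. Of the Ccl21a UMIs, 91 lay in 3 of the 9 cKO barcodes with few B genes and 179 in 1 deep barcode of the others. Lowest were Edn1 (148 and 0), the matrix genes Sparc, Col1a1, Col3a1 and Col1a2, Cyp1a1 (233 in 1 barcode against 6), Prap1 and Igfbp7. Every UMI of Edn1, Col1a1, Col3a1, Cyp1a1 and Igfbp7 in control B cells lay in the 7 barcodes with few B genes. Prap1, a secreted epithelial protein, had 82 UMIs in 14 control barcodes, of which 1 with few B genes held 50, and 18 UMIs lay in 9 of the 18. The library labelled cKO had 0. With the empty-droplet profile subtracted, the log2 ratio of Prap1 went from -3.56 to 0.0.

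Restricting the comparison to the 18 and 14 cells with at least 2 further B genes left 1613 genes, of which 131 (8.12%) were past 2-fold higher and 60 (3.72%) lower. Highest were Ccl21a, Emp1, Ccl2, Tm4sf1, Pdgfb and Prox1, whose UMIs in the library labelled cKO all came from 1 barcode of 21227 UMIs. That barcode had 20 UMIs of Cd79a, 35 of Ighm and 90 of Cd74 beside 179 of Ccl21a, 24 of Prox1 and 23 of Gzma, so it carried genes of B cells, lymphatic endothelium and NK cells at once. Without it, 94 of 1408 genes were higher and 68 lower. Ifngr1, a chain of the interferon γ receptor, had 9 UMIs in 4 cells and 61 in 5, of which 2 cells held 27 and 29. Sft2d2, of vesicle transport, had 2 and 28 UMIs, 20 of them in 1 cell.

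The lowest genes were spread over more cells. Hspa1a, an inducible heat shock protein, had 58 UMIs in 14 of 18 control cells and 9 in 2 of 14 cKO cells, a log2 ratio of -1.95. Chordc1, a co-chaperone of Hsp90, had 46 UMIs in 14 cells and 5 in 4 (-2.17). Nsa2, of ribosome assembly, had 38 UMIs in 10 cells and 3 in 3 (-2.29). Irf4, a transcription factor of activated B cells and plasma cells, had 69 UMIs in 11 cells and 13 in 9 (-1.80), and 46 of the 69 lay in the 2 control cells of 19 and 27 UMIs. Cd52, a surface glycoprotein of lymphocytes, had 64 UMIs in 8 cells and 10 in 6 (-1.98), with 27 in the same control cell. Ctsz, Stap1 and Taf7 completed the 8, and 18 of the 23 control UMIs of Stap1 came from 1 cell.

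Heat shock genes were followed further, a choice made after the values were seen. Hspa1a, Hspa1b, Hsph1, Hsp90aa1, Dnajb1 and Chordc1 summed to 897 UMIs in the 18 control cells and 296 in the 14 cKO cells, at 8811 and 3627 CPM. Per cell the sum ran from 4 to 111 UMIs with a median of 47 in the library labelled control, and from 1 to 101 with a median of 16.5 in that labelled cKO. The median per cell was 10288 CPM against 2805 CPM, though the highest cells of both libraries reached 19442 and 19380 CPM and the groups overlapped. The ratio of the sums was 0.412 (0.360 to 0.470), and 0.366 (0.312 to 0.428) without the deep barcode. In T cells the same sum had a ratio of 1.41 (1.30 to 1.53), in macrophages 1.09 (1.05 to 1.13) and in fibroblasts 0.930 (0.914 to 0.946). The B cells' median share of mitochondrial UMIs was 7.58% and 8.40%, and the part of dissociation in these values was not tested.

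**Figure D5:**
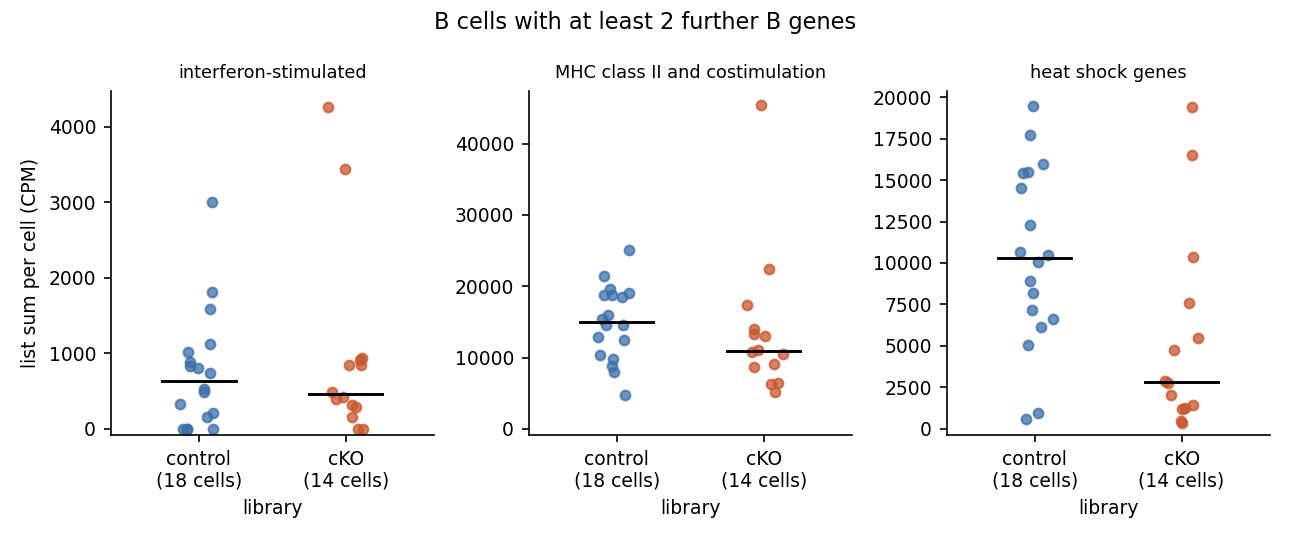
Summed CPM of 3 gene lists in each of the 18 control and 14 cKO B cells with at least 2 further B genes; lines are medians. The heat shock medians are 10288 and 2805 CPM with overlapping cells, and the interferon-stimulated and MHC class II values overlap almost throughout.

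The list of immediate early and dissociation response genes, which respond to stimulation and to tissue dissociation, did not move as 1 group. It includes the heat shock genes Hspa1a (58 and 9 UMIs) and Hspa1b (168 and 43), which the heat shock sum above already counted. The list summed to 1003 and 727 UMIs with these heat shock genes, a ratio of 0.904 (0.821 to 0.996). Without the deep barcode the ratio was 0.744 (0.664 to 0.833). A sum without Hspa1a and Hspa1b was not made. Of 18 tested genes of the list, 5 were past 2-fold higher and 2 (Hspa1a and Hspa1b) lower, against 8.12% and 3.72% of all genes, and their median was 0.74 against 0.18. Junb, an AP-1 subunit, had 30 and 53 UMIs, of which 31 of the 53 came from 1 cell. Zfp36, which destabilises cytokine messages, had 17 and 43, with 23 in 1 cell. Klf6 had 31 and 62, with 28 in 1 cell, and Dusp1, a MAP kinase phosphatase, 8 and 22 with 13 in 1 cell. Dusp2 was less uneven, with 4 UMIs in 4 cells and 17 in 7, and at most 5 per cell.

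Of the remaining lists, counts in the 32 B cells stand against 8.12% higher and 3.72% lower over all genes. Of 14 tested genes of B cell identity and receptor signalling, 1 (Cd52) was past 2-fold lower and none higher, with a median of -0.26. Of 7 tested homing and adhesion genes, 1 (Itgb1, an integrin chain, 16 and 33 UMIs) was higher. Cxcr4, the receptor of Cxcl12, had 58 UMIs in 11 cells and 67 in 12, a ratio of 1.44 (0.999 to 2.08). Of 10 tested genes of the plasma cell and secretory list, 1 (Irf4) was lower and none higher. The chaperone Hspa5 had 116 and 138 UMIs. Follicular genes (4 tested) and marginal zone or B1 genes (4 tested) had none past 2-fold. Plac8 of the latter had 50 and 27 UMIs and Ahnak 28 and 46. Cell cycle genes summed to 51 and 44 UMIs, a ratio of 1.08 (0.702 to 1.64).

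Markers of most other cell types in the 32 B cells were near 0, though 28 UMIs of the NK list lay in the deep cKO barcode and 11 of smooth muscle genes in 1 control cell. T cell receptor and CD3 genes had 0 UMIs in the library labelled control against 2 in that labelled cKO. Of the macrophage markers, C1qa, C1qb, C1qc, Csf1r and Lyz2 were at 0 in both. Siglech, Ccr9, Klk1 and Cox6a2, which define plasmacytoid dendritic cells, were at 0 in both, and Bst2, the fifth marker, had 2 and 1 UMIs. The wider list of 12 such genes summed to 49 and 24 UMIs, of which 39 and 23 were Tcf4, a factor that B cells also express. Fibroblast markers had 1 UMI in each library and epithelial markers 7 and 0.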

How the data were processed

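Per the file headers, the authors deposited unfiltered UMI counts per gene and barcode, written by Cell Ranger version 4; the submitters' processing notes name Cell Ranger 6.1.1 and build mm10 (GRCm38). Aligner settings and annotation release are not given in the sources used here. No normalization had been applied. All 32285 genes of the 2 libraries were read. The members and gene lists were chosen with earlier results of these data known. Shares have exact binomial (Clopper-Pearson) intervals, CPM have exact Poisson ones, and a ratio of 2 CPM has an exact conditional one, with a level of 95%. PCR duplicates were collapsed by UMI, and intervals cover counting error only.

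UMIs were summed over cells per library, and genes with at least 20 UMIs were compared by the log2 ratio of CPM plus 50. The named genes were the 8 highest and 8 lowest, without immunoglobulin, mitochondrial, ribosomal and X-inactivation genes, plus the members of each list past 2-fold and of high CPM, and the genes with the highest CPM over all other barcodes. T cells, macrophages and fibroblasts were passing barcodes outside the members, without UMIs of Cd79a, Ms4a1 and Epcam. T cells had at least 1 UMI of Cd3e, none of Pdgfra and at most 2 of the C1q genes. Macrophages had at least 5 UMIs of the C1q genes and none of Cd3e or Pdgfra. Fibroblasts had at least 2 UMIs of Pdgfra and none of Cd3e or Ptprc, with no limit on the C1q genes. Genes below the limit, and the heat shock list, were chosen after their values were seen. Of 393 immunoglobulin genes none entered the totals of that comparison. Scripts were tested on simulated data. Tools were Python 3.11.15, numpy 2.4.6, scipy 1.17.1, pandas 2.3.3 and Biopython 1.88. The antibody-secreting cells were not compared between libraries, since the library labelled control held 0. One gene of the lists is not reported here.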

Additional observations from a re-analysis of the deposited data

Results flagged for a closer look

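In the library labelled cKO 11 barcodes met the antibody-secreting branch of the rule but were left out of the members by Epcam, Pdgfra or C1q UMIs, and the library labelled control had 0 such barcodes. They are data outside the members that carry the members' own signal, and 8 of them have Epcam as the single reason. With Epcam not applied to that branch, antibody-secreting cells would number 11 in place of 3.

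The 6 heat shock genes had opposite directions in 2 cell classes. Their summed ratio, cKO over control, was 0.412 in the B cells with at least 2 further B genes and 1.41 in T cells. The genes were chosen after their values in these B cells were seen, and Hspa1a and Chordc1 were among the 8 lowest there. The contrast is therefore a description, and with 1 library per group this difference was not tested.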

How the results depend on the processing

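No paired analysis was possible because each group is 1 library and the labels carry no replicate numbers. The share of B lineage cells in the library labelled control was 0.295% for members without any UMI of 9 marker genes of other cells, 0.340% after thinning to 1000 UMIs and 1.64% of barcodes with a Ptprc UMI. In the library labelled cKO it was 0.348% with at least 3 UMIs in the first branch and 1.51% of barcodes with a Ptprc UMI. After thinning, members were 12 of 3529 and 20 of 3614 barcodes, 11 of the 20 antibody-secreting, and 872 and 989 shallower barcodes were left out. With Epcam not applied to the antibody-secreting branch, that branch made up 32.4% of the members of the library labelled cKO against 11.5%.

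Genes past 2-fold in B cells were 383 higher and 166 lower with a pseudocount of 10 CPM, and 115 higher with 100 CPM. They were 162 lower with at least 5 UMIs, and 100 higher and 49 lower with at least 50. In cells with at least 2 further B genes they were 131 and 60, and 94 higher with barcodes under 20000 UMIs alone. The median of the interferon-stimulated list, 0.04 in the comparison as reported, was -0.13 with at least 5 UMIs, -0.087 with median-of-ratios scaling, 0.88 with every cell weighing the same and 0.41 with the empty-droplet profile subtracted. It had no value with at least 50 UMIs, in members without other cells' markers or in cells with at least 2 further B genes, as no list gene was tested. Subtracting that profile also took the log2 ratio of Prap1 from -3.56 to 0.0. Of 152 values of single genes under the alternatives, 151 kept their direction and their side of 2-fold. These genes were the 8 highest and 8 lowest of the comparison, most with UMIs from a few barcodes. Their kept directions therefore do not measure how firm the comparison is. Genes that fell below the UMI limit under an alternative gave no value and are not among the 152. In members without other cells' markers, Ccl21a, Prox1, Ccl22, Mmrn1 and Gpr183 alone had values, and no gene of the lowest. In cells with at least 2 further B genes, Ccl21a, Prox1 and Ccl2 alone had values. With barcodes under 20000 UMIs alone, these had no value either. The antibody-secreting comparison between libraries was not run, since 1 library had no such cell. With 51 cells, differences within the intervals given were not detectable at this depth. The choice of at least 2 further B genes, the 20000 UMI limit and the Epcam alternative were made after seeing the data.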
